A study of Homo sapiens with 9 samples.

Results

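PD325901, an inhibitor of the kinase MEK, was compared directly with BB94 (batimastat), an inhibitor of metalloproteinases, in MDA-MB231 cells, an established human breast cancer line. The comparison used 5 of the 9 arrays in the series, the 3 arrays of cells given 3 µM PD325901 and the 2 arrays of cells given 10 µM BB94, and it ran across all 18132 genes. Within it, 107 of the 18132 genes were set apart because each inhibitor was called different from vehicle and the signs were opposite: 82 genes were higher with PD325901 and lower with BB94, and 25 were lower with PD325901 and higher with BB94. The 4 vehicle arrays, of cells given 0.1% DMSO, served both sides of that choice. All cultures were the same unmodified line, plated at 70% confluency in 10 cm plates in DMEM with 10% FBS, and RNA was taken after 24 h of treatment. Both inhibitors came from 10 mM stocks in DMSO, and no label used here says if DMSO was equalised across the groups. Samples are labelled as biological replicates, with neither separate passages nor a batch named, so the p-values measure the spread between these samples.

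MEK phosphorylates and activates ERK, which drives immediate-early transcription factors, cyclin D1 and a set of its own inhibitors (DUSP and Sprouty proteins), so these genes serve as a readout of ERK activity. Metalloproteinases of the MMP and ADAM families cut matrix and shed growth factor ligands, receptors and cytokines from the cell surface, and BB94 blocks their zinc-dependent catalytic site. The series concerns receptor shedding and resistance to kinase inhibitors, and the direct comparison asks how the transcript response to loss of MEK signalling differs from the response to loss of protease activity.

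Each gene was read from the probe set with the highest mean, as a deposited log2 RMA value, and a difference of 1 on this scale is a change of 2-fold. The medians of the arrays over all probe sets lay between 6.05 and 6.34. A background level was taken per array as the highest of 23 background probe sets, between 6.02 and 6.50, and 10133 genes lay above it on all 5 inhibitor arrays. The line's usual markers were checked: 8 of 8 genes typical of it (among them VIM, CD44, AXL and CAV1) lay above background on all 5 arrays, and of 8 genes typically low in it, 3 (ERBB2, GATA3 and FOXA1) also did. Of markers of other cells, 1 of 11 leukocyte genes (CD8A), 1 of 8 endothelial genes (ESAM) and 1 of 8 fibroblast genes (COL1A1) lay above background on all 5 arrays, while PTPRC, CD3E, CDH5, VWF, DCN and PDGFRA did not. Per array, the median level of the leukocyte genes was 4.58 and 4.59 with BB94 and 4.75 to 4.79 with PD325901, and 4.39 to 4.69 in the controls. In a culture such as this, fewer cells of a type and less RNA per cell cannot be told apart. As a measure of RNA integrity, the 3' minus 5' difference of the ACTB control probe sets was 3.91 and 4.22 on the BB94 arrays, 4.15, 3.61 and 3.50 on the PD325901 arrays and 2.96 to 3.89 on the controls, so both BB94 arrays lay above every control; its part in the results was not tested.

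Between the inhibitors, 5652 of 18132 genes differed (31.2% of those tested; limma, Benjamini-Hochberg adjusted p under 0.05), 3804 higher with PD325901 (21.0%) and 1848 lower (10.2%). Differences of 2-fold or more were called for 1119 genes higher (6.17%) and 438 lower (2.42%). Most of these genes had also been called for PD325901 against vehicle, 3290 of the 3804 and 1640 of the 1848. Only 36 of the higher and 17 of the lower genes were called for BB94 and not for PD325901 against vehicle, and 478 and 191 were called in neither. The balance of directions rested on the scaling. The median difference over all genes was 0.11. The gene medians were 7.77 to 7.86 on the PD325901 arrays against 7.58 and 7.39 on the BB94 arrays, a wider gap. With every array centred on its median over genes the split became 1990 higher and 5025 lower (28.4% of calls higher against 67.3%, with a median over genes of -0.21). With cyclic loess it was 3041 and 2670 (53.2% higher, with a median of -0.004). Centring thus put the typical gene below 0, so counts and signs given with arrays centred lean to the lower side. Small differences are therefore read below relative to these medians. Without BB94 replicate 2 the higher genes numbered 2398, and without BB94 replicate 1 the lower genes numbered 1153.

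The 6 highest differences among genes above background on all 5 arrays were those of ELF3, C1R, MEGF6, SERPINF1, LOXL4 and GPNMB. ELF3, an epithelial ETS transcription factor, had the largest, and ELF3 and MEGF6 belonged to the opposed genes described below. C1R, the complement protease that starts the classical pathway, read 7.0 and 6.90 with BB94, 11.46, 11.55 and 11.50 with PD325901, and 7.13, 7.25, 7.22 and 7.56 with vehicle. The inhibitor groups lay far apart and the BB94 arrays just under the controls; the difference of 4.55 ± 0.12 (SE) is 23.4-fold (limma adjusted p = 9.7e-09). SERPINF1, which encodes the secreted anti-angiogenic factor PEDF, was 20.6-fold higher, at 11.67, 11.71 and 11.97 against 7.44 and 7.39. LOXL4, a matrix-crosslinking amine oxidase, was 16.3-fold higher, at 11.64, 11.74 and 11.64 against 7.75 and 7.53. GPNMB, a transmembrane glycoprotein that ADAM10 can shed, read 10.62, 10.67 and 10.54 against 6.71 and 6.97, a difference of 3.77 (13.6-fold), and here the BB94 arrays also lay above the 4 controls (6.23 to 6.45).

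For genes dim with BB94 only a lower bound of the fold can be given, because 1 or more arrays of the dimmer group did not exceed the background level. DEFB1, a constitutive epithelial defensin, read 5.64 and 5.78 with BB94 and 10.88, 10.78 and 10.79 with PD325901, at least 23.8-fold higher. MAF, a bZIP transcription factor, read 5.01 and 5.16 against 10.10, 10.13 and 10.42, at least 15.7-fold higher; of its 3 other probe sets, 1 had the same sign and was called and none was called the opposite way. CFB, the alternative-pathway complement protease, was at least 11.9-fold higher and MB, encoding myoglobin, at least 12.4-fold.

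Of the 6 lowest differences, 4 (ETV5, DUSP6, EGR1 and CCND1) were in the ERK output list, and the other two, TLR4 (-3.29) and DNER (-2.97), belonged to the opposed genes. ETV5, an ETS factor induced by ERK, read 12.85 and 12.91 with BB94 and 9.49, 8.01 and 7.71 with PD325901, a difference of -4.47 ± 0.39 (SE), 22.2-fold lower (limma adjusted p = 1.2e-05). DUSP6, the phosphatase that removes ERK's activating phosphates, read 13.26 and 13.29 against 11.04, 8.99 and 8.02. EGR1, an immediate-early zinc finger factor, read 13.23 and 13.84 against 11.54, 9.74 and 9.18. In all 3 genes PD325901 replicate 1 stood above replicates 2 and 3 while staying below every BB94 array, and the error of the difference was correspondingly wide, 0.63 for DUSP6 (-3.93, 15.2-fold) and 0.53 for EGR1 (-3.38, 10.4-fold). CCND1, the G1 cyclin, showed less spread: 12.50 and 12.42 against 9.58, 9.31 and 9.05, 8.84-fold lower. Bounds were larger still for MYEOV, a gene amplified beside CCND1 in some tumours (11.98 and 11.90 against 7.84, 6.42 and 6.02, at least 32.4-fold lower), for the feedback inhibitor SPRY4 (11.19 and 11.02 against 6.72, 5.83 and 4.78, at least 23.7-fold) and for ETV1 (11.28 and 11.30 against 7.99, 6.31 and 5.69, at least 20.1-fold). Against vehicle the same genes moved little with BB94: BB94 minus control was 0.03 for MYEOV, -0.10 for SPRY4 and -0.09 for DUSP6.

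The 107 opposed genes are described without a test, because the contrasts that chose them share the 4 control arrays and fix the sign of the direct difference. Opposed genes made up 0.452% of the genes tested in the first direction and 0.138% in the other, against 35.1% called for PD325901 alone (22.8% higher, 12.3% lower) and 1.58% for BB94 alone (0.491% higher, 1.09% lower). All 82 and all 25 were called in the direct contrast, a sign that the choice fixes, so nothing is read from it. On 80 of the 82 and on 25 of the 25 the 4 control arrays lay wholly between the inhibitor groups, the exceptions being CCL2 and ARL14. The choice nearly fixes this too, so nothing is read from it, and the same share was not counted over all genes. Without regard to the controls, the PD325901 arrays lay wholly above the BB94 arrays for 40.7% of all genes and wholly below for 20.1%. The median direct difference was 1.55 (0.66 to 5.0) in the first set and -1.79 (-3.29 to -0.79) in the other. The side away from control was unequal: in the first set PD325901 gave the larger change for 50 genes and BB94 for 32, and in the other set for 15 and 10. These differences are fitted values, and with the 29 and 4 genes that have only a bound set at it, and the 4 and 1 with no fold set at 0, the medians were 1.44 and -1.72. Both fitted changes reached 2-fold for 6 and 3 genes.

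**Figure D1:**
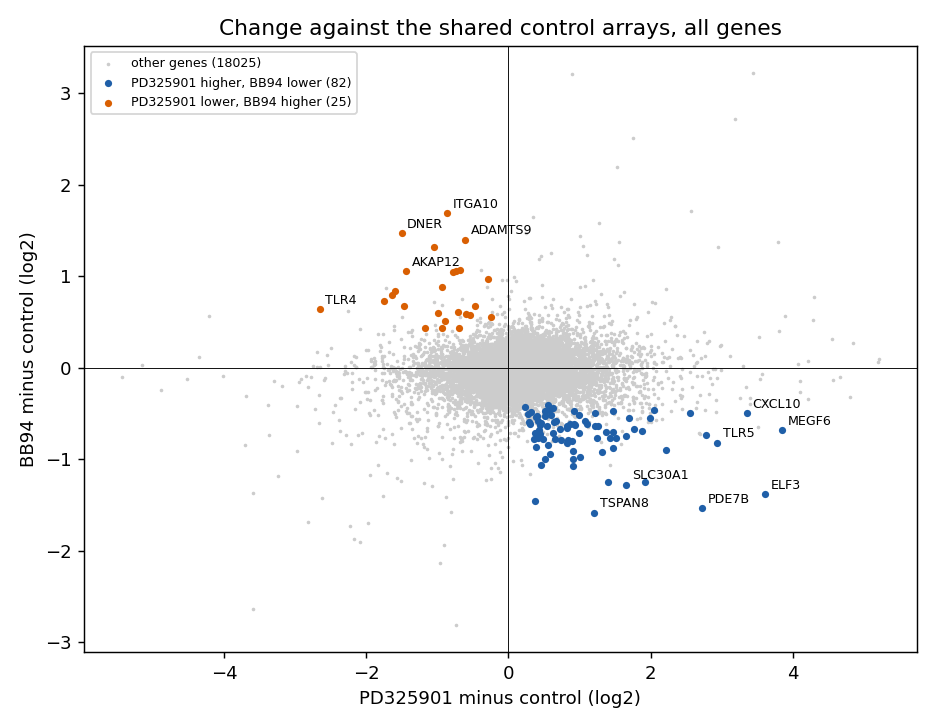
Fitted log2 change of every gene against the shared control arrays, PD325901 on the horizontal and BB94 on the vertical axis. The 82 blue and 25 orange points, the opposed genes, lie in the quadrants of opposite sign, and their BB94 changes are mostly under 1 in size while ELF3 and MEGF6 reach 3.61 and 3.85 with PD325901.

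The membership depended on the 2 BB94 arrays. Without BB94 replicate 2 there were 9 and 12 opposed genes, of which 9 and 12 belonged to the 82 and 25; without BB94 replicate 1 there were 35 and 9, of which 30 and 9 did. Leaving out PD325901 replicate 2 gave 53 and 16, leaving out PD325901 replicate 3 gave 52 and 16, and leaving out control replicate 2 gave 62 and 16. The controls could be divided so that the contrasts no longer shared arrays. With PD325901 set against control replicates 1 and 2 and BB94 against 3 and 4, 78 of the 82 and 24 of the 25 remained. That division called 377 and 236 opposed genes in all. With the control pairs exchanged 66 and 20 remained, and 135 and 27 were called in all. The 82 and 25 had been chosen on these same arrays, so what remained describes the sets and is no support for them. Under all 22 alternative settings, 6 genes stayed opposed in the first direction (ELF3, PDE7B, SLC30A1, AGR2, ABI3BP and TSPAN8) and 8 in the other (DNER, AKAP12, PMEPA1, ITGA10, AOX1, EFNB2, ALOX5AP and ADAMTS9). At the threshold, ANO2 was just inside the first set (the larger of its adjusted p-values was 0.05; fitted changes of 2.56 and -0.49) and GSTM2P1 just outside (0.0503; 1.81 and -0.56). B3GNT5 was just inside the other set (0.0497; -0.68 and 1.07) and TNPO2 just outside (0.053; -0.39 and 0.55).

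Probe sets that the choice of the highest mean had passed over gave a further reading of the same arrays. In the first set 55 genes had 127 other probe sets, of which 120 had the same sign of the direct difference, 86 were called that way and 0 the opposite way. In the other set 21 genes had 36, of which 35 had the same sign, 27 were called that way and 0 the opposite way. Over all 18132 genes, the fit of all probe sets called 4575 genes higher and 2343 lower in the direct contrast. Those are numbers of genes and include the chosen probe sets. The share of passed-over probe sets called, or of the same sign, was not counted over all genes. The counts above thus have no like share beside them and are no support for the sets. These counts read the direct difference alone, which a change with PD325901 can give without one with BB94. With the mean of probe sets, 54 of the 82 and 16 of the 25 stayed opposed. On all 9 arrays, 49 of the 82 and 20 of the 25 lay above background, and the median control level was 7.42 in the first set and 9.37 in the other, against 7.56 over all genes.

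Upstream sequences of 6 opposed genes, picked for holding a match, are shown as examples of the motifs searched. They hold an NF-kB-type site in ELF3, interferon response elements in CXCL10 and IFIT1, and AP-1 sites in CPA4. TLR4 holds ETS-type sites and AOX1 an E-box. Any role of these letters in the results was not tested. They are RefSeq sequence of GRCh38.p14, 5′ to 3′ along the gene, with the matched letters in capitals.
ELF3, chr1:202010457-202010546, plus strand: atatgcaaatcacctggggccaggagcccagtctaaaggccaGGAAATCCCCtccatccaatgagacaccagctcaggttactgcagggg
CXCL10, chr4:76023648-76023737, minus strand: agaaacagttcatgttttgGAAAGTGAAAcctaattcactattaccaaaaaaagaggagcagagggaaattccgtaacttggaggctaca
IFIT1, chr10:89392483-89392572, plus strand: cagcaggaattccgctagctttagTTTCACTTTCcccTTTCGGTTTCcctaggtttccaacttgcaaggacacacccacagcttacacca
CPA4, chr7:130293071-130293160, plus strand: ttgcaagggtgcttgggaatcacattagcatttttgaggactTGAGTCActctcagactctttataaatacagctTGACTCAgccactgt
TLR4, chr9:117704163-117704382, plus strand: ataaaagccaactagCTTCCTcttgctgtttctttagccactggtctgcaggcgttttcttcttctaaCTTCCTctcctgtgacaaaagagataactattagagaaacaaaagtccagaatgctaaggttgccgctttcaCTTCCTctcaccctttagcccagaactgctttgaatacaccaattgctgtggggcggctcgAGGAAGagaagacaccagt
AOX1, chr2:200585864-200585953, plus strand: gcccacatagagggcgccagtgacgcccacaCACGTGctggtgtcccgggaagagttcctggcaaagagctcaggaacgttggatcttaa

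Matches were sought on both strands in the 250 bases before the start of 14425 measured genes with a RefSeq window, among them 62 of the 82 and 18 of the 25; 3820 genes had several windows. The interferon element (GAAA and GAAA separated by any 2 bases) was found in 4 of the 62 (6.45%), 0 of the 18 and 3.56% of all 14425 genes, counting a match in any window of a gene. AP-1 sites (TGANTCA) were in 9.68% of the first set and 11.1% of the other against 7.22%, and NF-kB-type sites (GGG and TTTCC separated by any 2 bases) in 3.23% and 5.56% against 2.41%. The ETS core AGGAAG was in 19 of 62 (30.6%) and 10 of 18 (55.6%) against 35.1%, and the ETS site CCGGAAG in 9.68% and 11.1% against 14.3%. The E-box CACGTG was in 11.3% and 16.7% against 9.82%, and TGGGAA, the core bound by the Notch effector RBPJ, in 29.0% and 16.7% against 25.3%. C/EBP-type letters (TTGCNNAA) were in 11.3% and 5.56% against 9.95%, the cAMP element TGACGTCA in 1 of 62 (1.61%) and 0 of 18 against 2.83%, and the glucocorticoid element (GNACA and TGTNC separated by any 3 bases) in 0 and 0 against 0.354%. No motif contains another, but AGGAAG and CCGGAAG end in the same letters, and matches of different motifs could overlap. These shares describe letters in a window, and the counts are small.

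The 82 genes that were higher with PD325901 and lower with BB94 included 2 of the 27 members of the epithelial list and 3 of the 16 luminal genes. They also held 3 of the 33 interferon-stimulated, 2 of the 25 cytokine and 2 of the 20 nicotinamide and NAD genes. Over all genes tested the share was 0.452%. Further lists held 1 member each or none, and these counts are small. ELF3 read 7.31 and 7.02 with BB94, 8.59, 8.59, 8.62 and 8.39 with vehicle, and 12.19, 12.18 and 12.12 with PD325901. The 3 groups were separate with no overlap, and the direct difference was 5.0 (31.9-fold), of which PD325901 gave 3.61 and BB94 -1.38 against control. AGR2, a protein disulfide isomerase of mucus-secreting cells, read 6.07 and 5.86 with BB94, 7.28, 7.11, 7.40 and 7.08 with vehicle, and 9.08, 9.10 and 9.22 with PD325901, at least 7.41-fold apart because the BB94 arrays lay below background. TSPAN8, a tetraspanin of epithelial cells, read 6.99 and 6.74, then 8.35, 8.39, 8.51 and 8.54, then 9.56, 9.70 and 9.70 in the same order, and BB94 gave the larger part (-1.58 against 1.21). KRT19, a keratin of simple epithelia, ran from 10.33 and 10.34 through 10.84 to 11.21 up to 11.62 to 11.81. CLDN4, a tight-junction claudin, ran from 6.49 and 6.25 through 7.0 to 7.33 up to 7.50 to 7.62, and JUP, the junctional plaque protein plakoglobin, from 7.45 and 7.23 through 7.69 to 8.04 up to 8.30 to 8.38. RAB17 and MAL2, which act in apical vesicle transport, were at least 5.14-fold and 4.35-fold higher, while RAB27B differed by 2.07, MISP by 2.25 and the virus receptor and junction protein CXADR by 1.52. JUP and RAB17 lost the opposed pattern in 10 of the 22 alternative settings. KRT19, RAB27B and MISP lost it in 6, CLDN4 and MAL2 in 4 and CXADR in 3.

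**Figure D2:**
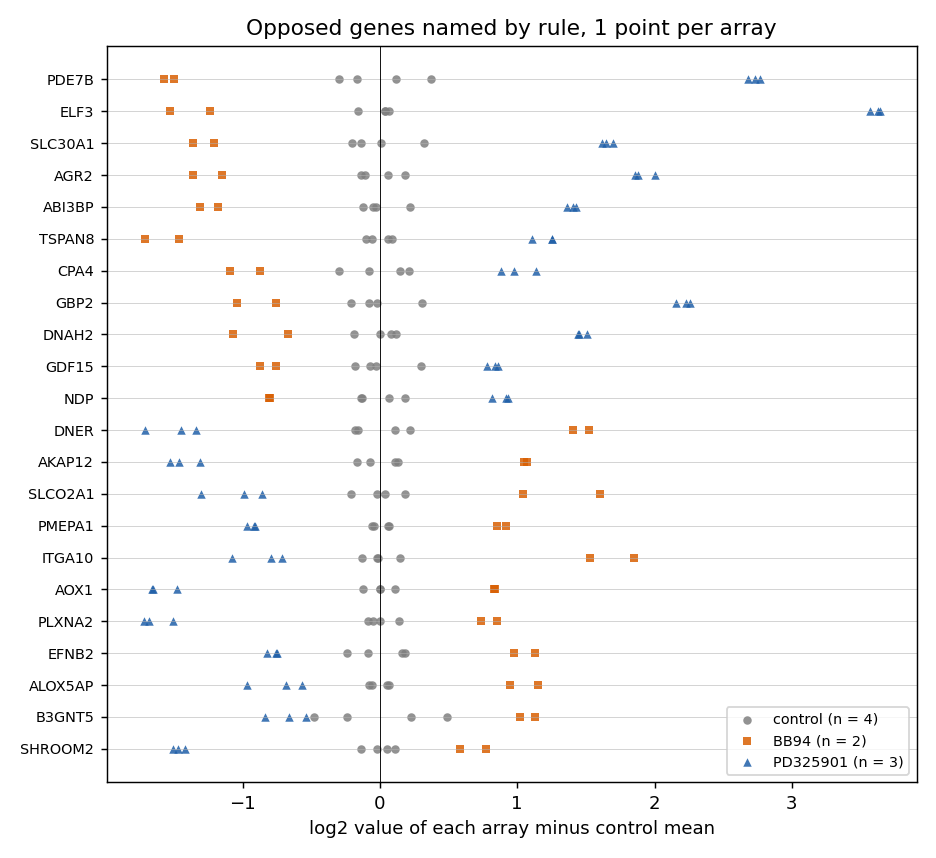
Opposed genes named by rule, with 1 point per array as the log2 value minus the control mean (circles control, squares BB94, triangles PD325901). The BB94 and PD325901 points of each gene lie on opposite sides of its control points, with ELF3 widest in the upper set.

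Several of the 82 encode immune proteins, and most of these were among the less stable members. Of the 22 alternative settings, CXCL10 and CCL2 lost the opposed pattern in 14, CX3CL1 in 13, IFIT1 in 11 and ICAM1 in 10. SLAMF7 lost it in 4, TLR5 in 3 and GBP2 in 2. CXCL10, an interferon-induced chemokine for T cells, read 4.59 and 4.47 with BB94, 5.12, 4.89, 4.99 and 5.11 with vehicle, and 8.31, 8.35 and 8.49 with PD325901. Both BB94 and vehicle arrays lay below background, so the lowering by BB94 is a difference between dim signals, while the direct difference was at least 4.40-fold. TLR5, the flagellin receptor, was likewise below background with BB94 (4.51 and 4.15) and vehicle (4.92 to 5.28) and read 8.11, 8.20 and 7.96 with PD325901, at least 3.60-fold higher. GBP2, an interferon-induced GTPase, was bright throughout: 7.75 and 7.47, then 8.43, 8.30, 8.49 and 8.82, then 10.74, 10.77 and 10.67, an 8.70-fold difference. IFIT1, an interferon-induced RNA-binding protein, read 8.78 and 8.33 with BB94, 9.13, 9.10, 9.23 and 9.31 with vehicle, and 10.04, 9.96 and 10.07 with PD325901. ICAM1, a leukocyte adhesion molecule, had one of the smaller differences (0.88): 10.01 and 9.72, then 10.40 to 10.49, then 10.69 to 10.79. CCL2, the monocyte chemokine, read 7.26 and 7.19 with BB94, 8.40, 8.70, 8.0 and 8.07 with vehicle and 8.65, 8.76 and 8.85 with PD325901, where control replicate 2 lay within the PD325901 range. CX3CL1, a membrane chemokine that ADAM10 and ADAM17 release, was at least 1.30-fold higher, and SLAMF7, a lymphocyte receptor, differed by 1.86.

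PDE7B, a cAMP phosphodiesterase, read 5.90 and 5.83 with BB94, 7.76, 7.52, 7.10 and 7.23 with vehicle, and 10.08, 10.17 and 10.13 with PD325901, at least 14.8-fold apart. PDE4B, a further cAMP phosphodiesterase, was at least 1.62-fold higher, with 1 of its 3 other probe sets of the same sign and none called. SLC30A1, the plasma membrane zinc exporter that the zinc sensor MTF1 induces, read 8.51 and 8.36 with BB94, 10.04, 9.58, 9.73 and 9.52 with vehicle, and 11.34, 11.37 and 11.42 with PD325901, a 7.67-fold difference to which both sides contributed (1.66 and -1.28). MTF1's other classical targets were not opposed: MT1F was 2.89-fold higher with PD325901 than with BB94 (12.80, 12.83 and 12.92 against 11.32 and 11.32, limma adjusted p = 5e-06), with BB94 minus control at 0.09. MT1F does not stand for its list. In the metallothionein list 3 of 12 measured genes were higher with PD325901, 1 lower and 8 not called (median 0.07). These shares were near the 21.0% and 10.2% over all genes. ERBB3, the kinase-impaired neuregulin receptor, read 5.62 and 5.30 with BB94, 6.54, 5.98, 6.50 and 6.50 with vehicle, and 7.72, 7.74 and 7.61 with PD325901, at least 2.72-fold higher; its other 2 probe sets had the same sign and neither was called. PCSK6, a proprotein convertase that activates growth factors and proteases, was at least 2.48-fold higher (7.68, 7.54 and 7.45 against 5.51 and 5.22). WNT10A, a Wnt ligand, was at least 3.51-fold higher. SEMA3E, a guidance semaphorin, differed by 2.28, and GPRC5B, an orphan receptor, by 2.58. SEMA3E lost the opposed pattern in 11 of the 22 alternative settings, GPRC5B in 10, ERBB3 in 9 and WNT10A in 6. PCSK6 lost it in 2 and PDE4B in 1.

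MEGF6, a large EGF-repeat protein, had the widest difference after ELF3 and came mostly from PD325901: 6.95 and 6.80 with BB94, 7.54, 7.40, 7.64 and 7.62 with vehicle, and 11.37, 11.44 and 11.39 with PD325901 (23.0-fold). ABI3BP, a matrix protein that binds collagen, was more balanced, at 5.66 and 5.53, then 7.06, 6.81, 6.79 and 6.72, then 8.20, 8.25 and 8.27, at least 3.99-fold apart, with PD325901 1.40 above vehicle and BB94 at least 1.51-fold below. CPA4, a secreted carboxypeptidase, was nearly even (1.01 and -0.98): 8.30 and 8.08, then 9.38, 9.32, 9.09 and 8.87, then 10.05, 10.31 and 10.15. S100A4, a calcium-binding protein linked to motility, read 10.12 and 10.16, then 10.67, 10.79, 10.73 and 10.73, then 11.73, 11.83 and 11.86. GDF15, a stress-induced member of the TGF-beta family, read 8.25 and 8.13, then 8.83, 8.94, 9.31 and 8.98, then 9.87, 9.85 and 9.79. NDP, the secreted Wnt pathway agonist norrin, was similar in form, at 9.14 and 9.13, 9.80 to 10.12, and 10.76 to 10.87. KYNU and NMNAT2, enzymes of kynurenine breakdown and NAD synthesis, differed by 1.08 and 0.98. BTG1, an antiproliferative factor, differed by 1.08 and CADM1, a cell adhesion molecule shed by ADAM10, by 1.63, and TEF, a clock-output bZIP factor, was at least 2.15-fold higher. NMNAT2 lost the opposed pattern in 14 of the 22 alternative settings and BTG1 in 6, the others named here in 4 or fewer.

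The 25 genes of the reverse pattern, lower with PD325901 and higher with BB94, included receptors, the ligands DNER and EFNB2 and the protease ADAMTS9. Of the 29 measured members of the Notch list, 0 were opposed in either direction. TLR4, the lipopolysaccharide receptor, read 11.55 and 11.41 with BB94, 10.79, 10.78, 10.93 and 10.88 with vehicle, and 8.22, 8.17 and 8.19 with PD325901, a 9.78-fold difference of which -2.65 came from PD325901 and 0.64 from BB94. DNER, a transmembrane Notch-related ligand, was balanced: 10.68 and 10.57, then 9.38, 9.27, 8.98 and 9.0, then 7.82, 7.71 and 7.45 (7.83-fold; -1.50 and 1.47). ITGA10, a collagen-binding integrin chain, moved more with BB94, at 9.49 and 9.17, then 7.79, 7.51, 7.63 and 7.62, then 6.93, 6.56 and 6.85 (1.69 against -0.86). ADAMTS9, a secreted versican-cleaving metalloproteinase, did so too, at 10.72 and 10.67, then 9.37, 9.45, 9.27 and 9.11, then 8.76, 8.55 and 8.76 (1.40 against -0.61). Of the MMP, ADAM and ADAMTS lists, ADAMTS9 was the 1 member among the opposed genes.

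EFNB2, a membrane ephrin ligand, read 10.37 and 10.22 with BB94, 9.42, 9.40, 9.15 and 9.0 with vehicle, and 8.48, 8.49 and 8.42 with PD325901. PLXNA2, a semaphorin receptor, read 8.88 and 8.76, then 7.93 to 8.16, then 6.51, 6.34 and 6.30, at least 5.08-fold apart. AKAP12, a scaffold for protein kinases A and C, read 12.72 and 12.70, then 11.76, 11.78, 11.58 and 11.48, then 10.19, 10.12 and 10.34 (5.62-fold). PMEPA1, a TGF-beta-induced inhibitor of SMAD signalling, read 10.73 and 10.65, then 9.75 to 9.88, then 8.84 to 8.90 (3.52-fold). SHROOM2, a regulator of the apical actomyosin network, differed 4.41-fold, and RGS2, a brake on G-protein signalling, 2.39-fold, the latter mostly through BB94 (0.97 against -0.29). RGS2 lost the opposed pattern in 6 of the 22 alternative settings, the others of this paragraph in 2 or fewer.

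AOX1, aldehyde oxidase, which oxidises N-methylnicotinamide among other substrates, read 10.20 and 10.21 with BB94, 9.37, 9.48, 9.37 and 9.25 with vehicle, and 7.89, 7.71 and 7.72 with PD325901 (5.39-fold). ALOX5AP, needed for leukotriene synthesis, read 8.30 and 8.10, then 7.07 to 7.22, then 6.18, 6.58 and 6.47, at least 3.30-fold apart. SLCO2A1, the prostaglandin transporter, read 7.74 and 7.18, then 5.93 to 6.32, then 5.15, 4.84 and 5.28, at least 2.06-fold. CSF3, the granulocyte growth factor, read 8.45 and 8.33, then 7.51 to 7.93, then 6.06, 5.97 and 5.74, at least 3.91-fold. FKBP5, an HSP90 co-chaperone induced by glucocorticoid receptor, read 12.25 and 12.31, then 11.59 to 11.76, then 11.16, 11.06 and 11.05 (2.28-fold). B3GNT5, a glycolipid glycosyltransferase, had the widest controls (9.97, 9.71, 9.0 and 9.24), with BB94 at 10.61 and 10.50 and PD325901 at 8.82, 8.64 and 8.94. B3GNT5 lost the opposed pattern in 11 of the 22 alternative settings and CSF3 in 8, the others named here in 3 or fewer.

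The lists of related genes were then read in the direct contrast, where 21.0% of all genes were higher with PD325901 and 10.2% lower (31.2% in all). ERK feedback and output genes were lower with PD325901 for 21 of 23 measured members, with a median difference of -1.98 against 0.11 over all genes; EPHA4 was the 1 member called higher (0.43), and its call was lost without BB94 replicate 2, PD325901 replicate 2 or PD325901 replicate 3. In the G1/S and DNA replication list, 38 of 41 were lower and 0 higher in the limma fit (0 higher also at an unadjusted p under 0.05; median -1.26). CLSPN, a replication checkpoint adaptor, was 4.83-fold lower (7.51, 7.74 and 8.04 against 10.08 and 9.99) and GINS2, a helicase subunit, 4.74-fold (8.40, 8.32 and 8.32 against 10.61 and 10.58). Of 34 G2/M and mitosis genes, 26 were lower and 1, CDC25B, higher (median -0.52; 15 lower without BB94 replicate 1, and 0 higher without BB94 replicate 2 or PD325901 replicate 1 or 2), led by the kinetochore protein SPC25 at -1.51 and the kinase AURKB at -1.16. Of 26 ribosome biogenesis and MYC target genes 11 were lower and 0 higher (0 also at an unadjusted p under 0.05; median -0.31; 7 lower without BB94 replicate 1 and 25 with arrays centred). In the same limma fit 0 genes of these 4 lists were called for BB94 against vehicle, where an unadjusted p under 0.05 was reached by 2 ERK output genes, 0 G1/S genes, 10 G2/M genes (all 10 lower) and 4 of the ribosome list, and their medians for BB94 minus control lay between -0.18 and 0.01.

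Immediate-early genes were less uniform: 7 of 22 were lower and 1, JUNB, higher (at least 1.27-fold; 0 without BB94 replicate 1 and 3 without control replicate 1; 11 lower and 0 higher with arrays centred), and FOS, FOSB, ATF3 and DUSP1 did not pass the test. EGR3 differed by -1.59 with both groups below background, so no fold is given. Of 20 arrest and quiescence genes 10 were higher and 4 lower. The CDK inhibitor CDKN1C was 5.87-fold higher (11.74, 11.83 and 11.84 against 9.28 and 9.22) and CCNG2, a FOXO-induced atypical cyclin, 3.25-fold, while the CDK inhibitor CDKN1A was lower (-0.74). In the BCL2 family, anti-apoptotic BCL2A1 (-1.82), BCL2 (-1.35), BCL2L1 (-1.27) and MCL1 (-1.09) were lower, and pro-apoptotic BCL2L11 (1.26), BBC3 (1.21), BAD (0.46) and HRK (at least 1.60-fold) higher. The other 10 of 18 did not pass the test (2 higher without BB94 replicate 2, and 2 higher and 6 lower with arrays centred). The 4 higher of 18 were close to the 21.0% over all genes, and the 4 lower stood against 10.2%. No pattern by function is read from so few genes.

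**Figure D3:**
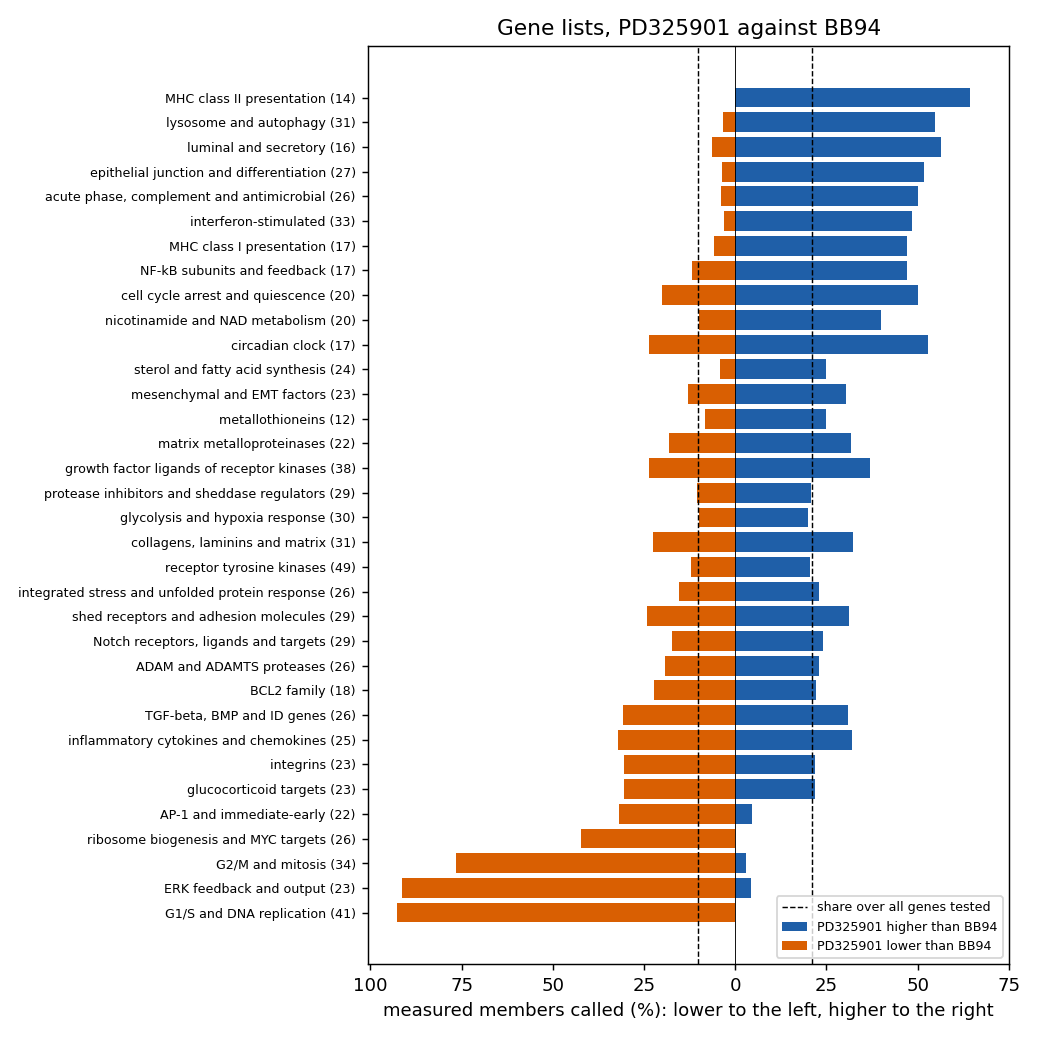
Share of measured members called higher (blue, right) and lower (orange, left) with PD325901 than with BB94, for each gene list other than the marker lists, with the number measured in brackets. Dashed lines mark the shares over all 18132 genes, 21.0% higher and 10.2% lower; the G1/S and ERK lists extend farthest to the left and the MHC class II list farthest to the right.

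Antigen presentation and defence lists lay to the higher side. MHC class II genes were higher with PD325901 for 9 of 14 members and lower for 0 in the limma fit (0 also at an unadjusted p under 0.05; median 0.75, and 0.42 with arrays centred, where 7 were higher). The peptide-loading factors HLA-DMB (8.72, 8.59 and 8.53 against 6.88 and 6.73) and HLA-DMA (9.23, 9.32 and 9.26 against 7.71 and 7.42) led, while their coactivator CIITA did not pass the test. MHC class I genes were higher for 8 of 17 and lower for 1, TAP2, but only 2 and 2 with arrays centred. NLRC5, the class I coactivator, was 12.0-fold higher (10.997, 10.95 and 10.85 against 7.53 and 7.17), and the immunoproteasome subunit PSMB9 1.84-fold. HLA probe sets can share signal among close paralogues, so single HLA genes are uncertain. Interferon-stimulated genes were higher for 16 of 33 and lower for 1, IFI44, among them CXCL10, GBP2, CXCL11 (1.72-fold or more) and MX2 (2.66-fold or more), and ISG15, IRF7 and IFIT3 not passing the test. In the limma fit BB94 was called lower than vehicle for 3 of these 33 (CXCL10, GBP2 and IFIT1), against 1.09% of all genes. It was called lower for 0 of the class I or class II genes. At an unadjusted p under 0.05 these were 0 of the class I genes and, of the class II genes, 2 higher and 2 lower.

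Acute phase, complement and antimicrobial genes were higher for 13 of 26 and lower for 1, SAA1. Of the 26, only 9 lay above background on all 5 inhibitor arrays. LCN2, a siderophore-binding defence protein, was at least 8.87-fold higher and the complement protease C1S at least 4.54-fold. Of 25 cytokines 8 were higher and 8 lower (5 higher without BB94 replicate 1, and 5 higher and 11 lower with arrays centred): IL32 was 5.85-fold higher (10.66, 10.81 and 10.78 against 8.22 and 8.18), CXCL5 was at least 1.09-fold higher, IL11 was at least 3.04-fold lower (5.73, 5.37 and 5.32 against 7.97 and 8.07) and CXCL8 differed by -1.46. Within the NF-kB list 8 of 17 were higher and 2 lower (0 and 1 lower without BB94 replicates 1 and 2); BCL3, an atypical inhibitor that acts as a coactivator, was 6.01-fold higher (9.66, 9.44 and 9.36 against 7.10 and 6.70), and NFKB1, RELA and TNFAIP3 did not pass the test. Lysosome and autophagy genes were higher for 17 of 31 and lower for 1 (GLA, not called without any 1 of the 5 inhibitor arrays), with the proteases CTSO (5.02-fold) and CTSD (2.73-fold) leading.

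Epithelial junction genes were higher for 14 of 27 and lower for 1, the sodium channel subunit SCNN1A (2 lower without BB94 replicate 2 or control replicate 1). P-cadherin CDH3 was 5.13-fold higher (10.30, 10.21 and 10.27 against 8.06 and 7.74), CLDN7 differed by 1.70 and EHF, an ETS factor related to ELF3, was at least 1.74-fold higher. CDH1 and ESRP1 lay below background in both inhibitor groups, so no fold is given. EPCAM, GRHL2 and OVOL1 did not pass the test. Luminal genes were higher for 9 of 16, and XBP1 was lower, a call lost without either BB94 array, PD325901 replicate 1 or 2, or control replicate 2. Only 10 of the 27 epithelial and 3 of the 16 luminal genes lay above background on all 5 inhibitor arrays. The counts and medians of these lists therefore rest largely on dim signals. Mesenchymal genes were mixed, 7 of 23 higher and 3 lower, with N-cadherin CDH2 3.05-fold higher (8.66, 8.51 and 8.59 against 7.14 and 6.82), fibronectin FN1 lower (-0.63), and VIM, ZEB1 and SNAI1 not passing the test; the list's median of 0.22 became -0.11 with arrays centred, 4 were higher without BB94 replicate 2, and 1 was lower without BB94 replicate 1 or PD325901 replicate 2. With that centring the medians of the epithelial (0.35), class I (0.45), interferon (0.42), NF-kB (0.43), acute phase (0.44) and lysosome (0.46) lists stayed above 0, at 0.02 to 0.14, but their counts moved: 11 epithelial genes were then higher and 5 lower, 13 and 3 interferon, 5 and 4 NF-kB, 8 and 2 acute phase, and 10 and 4 lysosome genes. The luminal list then gave 6 higher and 1 lower, and the mesenchymal list 4 and 6.

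The receptor kinases and the proteases that shed them were compared next. Of 49 receptor tyrosine kinases 10 were higher with PD325901 than with BB94 and 6 lower, close to the shares over all genes; with arrays centred the balance turned, to 6 higher and 14 lower. EPHA2, an ephrin receptor induced by ERK, was 6.76-fold lower (8.57, 8.42 and 8.28 against 11.25 and 11.10). MET read 11.90, 11.87 and 11.89 against 12.51 and 12.53, 1.55-fold lower (limma adjusted p = 0.00024), and EGFR 9.84, 9.86 and 9.84 against 10.55 and 10.34, 1.52-fold lower; with the mean of all EGFR probe sets the difference was -0.20 (adjusted p = 0.13). Higher genes were ERBB2 (1.05), DDR1 (0.95) and FGFR2 (at least 2.15-fold) besides ERBB3. AXL read 13.74, 13.74 and 13.82 against 13.73 and 13.81, with a difference of -0.00 and a 95% interval of -0.19 to 0.19. Intervals here are for single genes and are not adjusted. Ligands were called for 23 of 38, 14 higher (9 without BB94 replicate 2) and 9 lower (10 and 13 with arrays centred): HBEGF, an EGFR ligand released by ADAM17, was 3.70-fold lower (10.61, 10.56 and 10.30 against 12.38 and 12.38), NRG1 differed by -1.05 and EREG by -1.04, and ANGPT1, the TIE2 ligand, was at least 3.14-fold higher.

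Matrix metalloproteinase genes were higher for 7 of 22 and lower for 4 (5 and 7 with arrays centred). Of the 22, only 6 lay above background on all 5 inhibitor arrays. MMP1 read 13.41, 13.26 and 13.22 against 13.75 and 13.73 (-0.45; limma adjusted p = 0.0032). MMP3 was at least 1.37-fold lower, MMP9 differed by -1.43, and MMP10 lay below background in both inhibitor groups, so no fold is given. MMP11, stromelysin 3, was at least 1.34-fold higher. The main receptor sheddases did not pass the test: ADAM10 differed by 0.21 (95% interval -0.02 to 0.44; adjusted p = 0.16) and ADAM17 by 0.25 (0.02 to 0.47; adjusted p = 0.095), and both signs turned with arrays centred (-0.11 and -0.08). MMP14 differed by -0.28 (-0.66 to 0.10). Among the natural inhibitors TIMP3, the inhibitor of ADAM17, read 9.67, 9.61 and 9.55 with PD325901, 10.68 and 10.49 with BB94 and 11.23 to 11.47 with vehicle, so both inhibitors lay below vehicle and PD325901 a further 1.96-fold (adjusted p = 4.8e-05). TIMP1 differed by -0.32 (-0.67 to 0.03) and TIMP2 by 0.07 (-0.12 to 0.26). The ADAMTS6 gene was 5.52-fold lower (8.19, 8.23 and 8.25 against 10.75 and 10.63), although its 1 other probe set had the opposite sign and was not called. Over the ADAM and ADAMTS list 6 of 26 were higher (2 without BB94 replicate 2) and 5 lower, and with arrays centred 2 were higher and 8 lower. The share called was 42.3% of that list, against 31.2% over all genes. Among membrane proteins known to be shed, 9 of 29 were higher (5 without BB94 replicate 2) and 7 lower (3 and 4 without BB94 replicates 1 and 2), or 3 and 10 with arrays centred, with a median of 0.09 close to that over all genes. The chemokine CXCL16 (1.61) and the adhesion molecule L1CAM (1.44), both released by ADAM10, were higher, and PVR (-0.91), the poliovirus receptor and a nectin-like adhesion molecule, was lower.

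**Figure D4:**
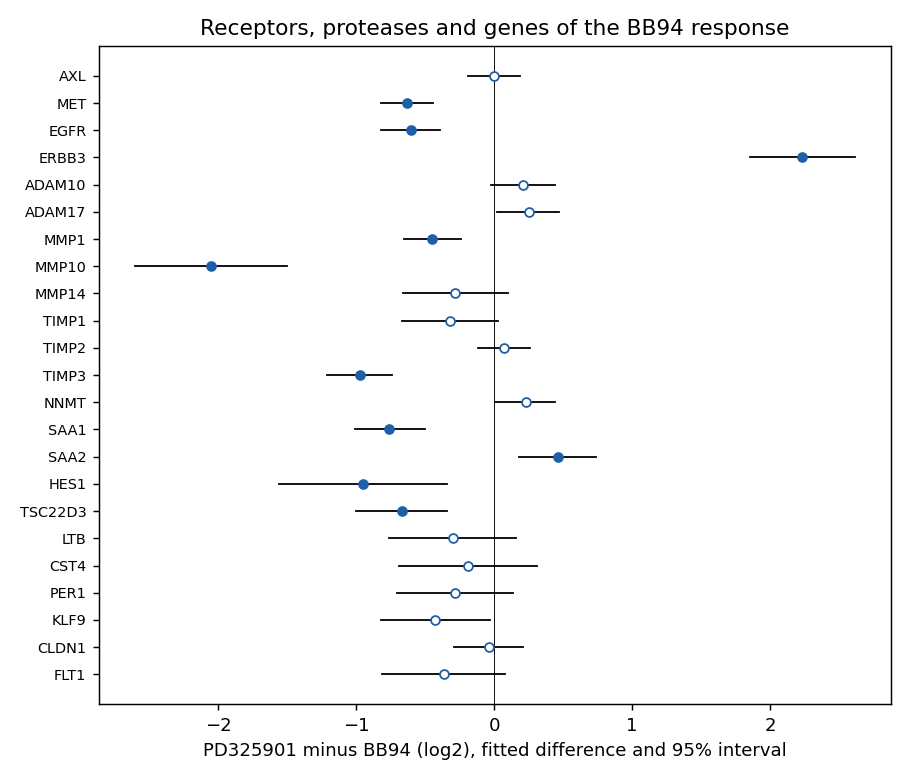
Fitted PD325901 minus BB94 difference (log2) with its unadjusted 95% interval for receptors, proteases, inhibitors and genes that both inhibitors moved; filled points were called and open points were not. AXL lies at -0.00; the points of ERBB3, HES1, MMP10, CLDN1 and FLT1 are fitted differences of genes with a group below background, for which the text gives a bound or no fold.

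Some genes moved the same way with both inhibitors, so that the direct difference was small beside either change. NNMT, which methylates nicotinamide, read 7.75, 7.87, 7.90 and 7.87 with vehicle, 11.07 and 11.06 with BB94 and 11.34, 11.36 and 11.17 with PD325901. It was 9.29-fold and 10.9-fold above vehicle, and the inhibitors differed by 0.23 (95% interval 0.01 to 0.44; limma adjusted p = 0.10), a sign that turned with arrays centred (-0.10). HPGD, which inactivates prostaglandins, was 2.59-fold and 2.95-fold above vehicle with a direct difference of 0.18 (-0.10 to 0.46), which became -0.14 with centring. SNAI2, a repressor of epithelial genes, was 2.18-fold and 2.92-fold above (0.42, -0.06 to 0.91). KLF9 was 2.71-fold above vehicle with BB94 and 2.01-fold with PD325901 (-0.43, -0.82 to -0.03; adjusted p = 0.099). SNAI2, KLF9, HPGD, PER1, LTB, CST4, CLDN1, IL1B and SAA2 were picked with their values known. The clock gene PER1 was at least 1.94-fold and 1.60-fold above (-0.28, -0.70 to 0.14).

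Falls were shared as well. LTB, encoding lymphotoxin beta, was 3.65-fold below vehicle with BB94 and 4.49-fold with PD325901 (direct difference -0.30, -0.76 to 0.16). CST4, a secreted cystatin, was 3.73-fold and 4.25-fold below (-0.19, -0.69 to 0.31). CLDN1 read 7.13 to 7.37 with vehicle, 6.44 and 6.24 with BB94 and 6.23, 6.44 and 6.22 with PD325901 (-0.04, -0.29 to 0.21, with 1 or more arrays of the dimmer group below background), so 2 claudins of the same list, CLDN1 and CLDN4, differed in pattern. These intervals leave room for differences of the sizes given and do not show that the inhibitors act alike.

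Other genes moved the same way but unequally. DDIT4, a stress-induced inhibitor of mTORC1, read 7.76 to 8.09 with vehicle, 9.39 and 9.24 with BB94 and 11.75, 11.66 and 11.81 with PD325901, 5.37-fold apart (limma adjusted p = 2.3e-07). IL1B fell 3.23-fold with BB94 and at least 4.22-fold with PD325901, which lay at least 1.31-fold below BB94. HES1, the Notch target, read 8.66, 9.89, 9.32 and 9.52 with vehicle, 6.78 and 6.63 with BB94 and 5.59, 5.80 and 5.89 with PD325901. All 3 PD325901 arrays lay below background for HES1, so the direct fold is only a bound, at least 1.22-fold lower. The call (limma adjusted p = 0.023) was lost without either BB94 array (adjusted p = 0.13 and 0.086) or without PD325901 replicate 1 (0.072) or 2 (0.05). TSC22D3, a glucocorticoid-induced leucine zipper protein, was 4.56-fold above vehicle with BB94 and 2.87-fold with PD325901 (-0.67; adjusted p = 0.0054, and 0.058 without BB94 replicate 2). SAA1 was 5.70-fold and 3.37-fold above vehicle with BB94 and PD325901, and SAA2, below background with vehicle, at least 1.38-fold and 1.91-fold; in the direct contrast SAA1 was lower (-0.76) and SAA2 higher (0.46, not called without either BB94 array, without PD325901 replicate 3 or with centring). These genes are near-identical, and their probe sets can share signal.

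Of 23 measured glucocorticoid targets BB94 was called above vehicle for 6 and below for 0 (limma; 1 below at an unadjusted p under 0.05), and PD325901 above for 11 and below for 3. Over all genes BB94 was called above vehicle for 0.491% and below for 1.09%, and PD325901 for 22.8% and 12.3%. In the direct contrast 5 of the targets were higher with PD325901 and 7 lower (5 and 13 with arrays centred). SGK1, a kinase induced by steroid hormones, was 4.62-fold lower with PD325901 than with BB94 (9.65, 9.59 and 9.73 against 11.75 and 11.97), and SCNN1A, a subunit of the sodium channel that SGK1 regulates, at least 2.64-fold lower (5.68, 5.46 and 5.36 against 8.01 and 7.62, with vehicle at 4.42 to 4.81), although the 1 other SCNN1A probe set had the opposite sign. CEBPD (1.88) and the receptor gene NR3C1 (1.32) were higher. In the Notch list 7 of 29 were higher and 5 lower, 41.4% called against 31.2% over all genes. Those lower numbered 3 without BB94 replicate 1 or PD325901 replicate 2, and with arrays centred 5 were higher and 9 lower. HEY1 and LFNG were 2.75-fold and 2.73-fold lower, NOTCH3 differed by 1.19 and HEYL by 1.39, although the 1 other probe set of HEY1, of LFNG and of NOTCH3 had the opposite sign and was not called. Among TGF-beta, BMP and ID genes 8 of 26 were higher and 8 lower (5 without BB94 replicate 1; 6 higher and 11 lower with arrays centred), with the ID proteins ID3 (6.04-fold) and ID2 (4.10-fold) higher and TGFBR2 (-1.96) lower. Integrins gave 5 of 23 higher and 7 lower (2 higher without either BB94 array and 3 without any 1 PD325901 array; 2 higher and 10 lower with arrays centred), and matrix genes 10 of 31 higher and 7 lower (9 and 13 with arrays centred), where the laminin chain LAMB1 was 6.38-fold lower (8.06, 7.75 and 7.63 against 10.58 and 10.40). The shares called were 52.2% of the integrins and 54.8% of the matrix genes, against 31.2% over all genes. Among genes that also mark other cell types, PECAM1 was at least 5.10-fold lower (6.86, 6.07 and 6.06 against 8.97 and 8.90) and CD8A 2.31-fold higher (10.45, 10.52 and 10.50 against 9.23 and 9.33), while their defining companions CDH5, VWF, PTPRC and CD3E lay below background.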

How the data were processed

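RNA of 9 MDA-MB231 cultures was hybridised to Affymetrix PrimeView arrays. The authors deposited log2 values per probe set from RMA in the affy package, per the labels and design text (version not given), and no further scaling was applied. RMA forces like distributions over probe sets, so a shift of most genes cannot be read from them. Of 49395 probe sets, 102 controls were left out, and 44988 had 1 gene symbol in the platform annotation, 1832 several and 2473 none; 44961 matched a RefSeq gene identifier. The probe set with the highest mean gave 18132 genes, of which 11734 had more than 1.

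Groups entered limma 3.58.1 under R 4.3.3 (lmFit and eBayes, a mean per group, all 9 arrays, 6 residual degrees of freedom, no covariate), two-sided, with Benjamini-Hochberg adjustment over all genes and calls at an adjusted p under 0.05; this procedure was tested on simulated data. Where any array of the dimmer group did not exceed its background level, the fold is a bound, from the brighter mean minus the mean, over the dim arrays, of the higher of that level and the gene's value, and with both groups below it none is given. Arrays hold no read depth, and their number limits the precision.

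The members, lists (917 genes, 866 measured) and tests were chosen with earlier results of these data known. Named genes were the 6 highest and 6 lowest direct differences with non-overlapping groups above background, the 3 largest bounds each way, up to 8 opposed genes each way above background and 3 further below it by the smaller of their changes, up to 2 called members of each list, and ELF3, AXL, MET, EGFR, ADAM10, ADAM17, MMP1, MMP14, TIMP1, TIMP2, TIMP3, HES1, NNMT, SAA1, TSC22D3, DUSP6, SPRY4 and CCND1. TLR5, KRT19, IFIT1, ICAM1, CCL2, CLDN4, CADM1, CSF3, ADAMTS9, RGS2, FKBP5 and other genes outside that rule were chosen after their values were seen. Alternatives were other probe set rules, filters, variance models, weights, scalings, control subsets, thresholds, a replicate block and leaving out each array.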

Additional observations from a re-analysis of the deposited data

Results flagged for a closer look

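In 10 of 137 sets of control arrays tested, 1 of the 4 controls stood apart from the other 3 by more than the 95% critical value of Dixon's ratio, which chance passes in about 1 set of 20. Control replicate 4 was the array in 4 of them, at 8.39 for ELF3, 10.92 for EPHA2, 4.89 for MAF and 3.25 for LUM, each below the other controls. Control replicate 3 stood above the others for CTSD at 7.86, for EGFR at 10.48 and for PER1 at 6.20. Control replicate 2 stood above for DKC1 at 11.002 and below for ERBB3 at 5.98, and control replicate 1 stood below for HBEGF at 12.38. For ELF3, MAF, EPHA2 and HBEGF the gap was small beside the PD325901 minus BB94 differences of 5.0, 5.13 (fitted; MAF was below background with BB94), -2.76 and -1.89.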

How the results depend on the processing

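Arrays numbered 2 for BB94 and 3 for PD325901, which limits precision most for BB94, and dim genes have only bounds. The 5652 direct calls ranged from 3800 to 6413 as single arrays were left out, with 2398 to 4336 higher and 1153 to 2077 lower. Centred on array medians, 1990 were higher and 5025 lower, and 583 and 865 at 2-fold or more, against 1119 and 438; 2-fold higher genes numbered 729 with cyclic loess and 737 with the mean of probe sets. BB94 against control gave 286 calls, 62 to 367 leaving out single arrays, 523 with all probe sets, 469 with array weights, 1633 against control replicates 3 and 4 alone, 140 with only the groups compared and 127 at an adjusted p under 0.01. Opposed genes (82 and 25) ranged from 9 to 96 and from 9 to 30 leaving out single arrays. They numbered 377 and 236 with PD325901 against control replicates 1 and 2 and BB94 against 3 and 4, and 135 of the first kind with the control pairs exchanged. They were 150 and 40 with array weights, 48 and 42 with centring, 229 and 73 with control replicates 3 and 4 alone, 32 and 16 with only the groups compared, 31 and 13 at an adjusted p under 0.01, 46 of the second kind with loess, and 42 of the first kind at 1.5-fold on each side. The cause was not tested.

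The replicate numbers did not pair the arrays, as same-numbered arrays of different groups had deviations correlated from -0.186 to 0.122. With a replicate block there were 5756 direct calls, 161 for BB94 against control, and 46 and 14 opposed genes.

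Of 122 named genes called, 113 kept their call and direction under all their alternatives. Most of them were named for large differences or calls, or with their values known. The count therefore describes these genes and is no measure of how stable the 5652 direct calls were. Signs turned with centring for ADAM10 (-0.11), ADAM17 (-0.08), NNMT (-0.10), PLAU (-0.01), TIMP2 (-0.25) and HPGD (-0.14), with loess for HPGD (-0.09) and AXL (0.13), with the mean of probe sets for TIMP2 (-0.07) and AXL (0.06), and with array weights for CLDN1 (0.01). Leaving out single arrays, AXL ran from -0.04 to 0.04 and CLDN1 from -0.14 to 0.06.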

Other observations

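The opposed sets could be read array by array as the median of their members minus the control mean, which describes how even the arrays were. The first set lay at -0.61 and -0.78 on the BB94 arrays and at 0.87, 0.86 and 0.92 on the PD325901 arrays. The other set lay at 0.80 and 0.66 with BB94 and at -0.82, -0.93 and -0.86 with PD325901. By contrast the ERK output list lay at -2.11, -2.55 and -2.26 on PD325901 replicates 1 to 3, where DUSP6, EGR1 and ETV5 were least lowered in replicate 1.

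Sterol and fatty acid synthesis genes were called for 7 of 24, 6 higher with PD325901 (1 without BB94 replicate 2) and ELOVL6 lower, while with arrays centred 2 were higher and 7 lower. ACSS2 differed by 0.86, and LSS (0.67) lost its call without BB94 replicate 2. Glycolysis and hypoxia genes were higher for 6 of 30, among them EGLN3 (1.51) and ALDOC (0.98), and lower for 3, shares close to the 21.0% and 10.2% over all genes, and with arrays centred 3 were higher and 11 lower. Clock genes were higher for 9 of 17 (5 without BB94 replicate 2) and lower for 4 (2 without BB94 replicate 1), or 5 and 6 with arrays centred, with CIART at least 1.76-fold higher and NPAS2 lower (-1.51). In the stress response list 6 of 26 were higher and 4 lower (2 without either BB94 array or PD325901 replicate 1 or 2), near the shares over all genes, and with arrays centred 2 were higher and 13 lower. The endoplasmic reticulum cochaperone SDF2L1 differed by -1.15.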
